A study of Mus musculus with 12 samples.

Results

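The 41 genes described here encode Wnt ligands, their receptors, secreted Wnt inhibitors, R-spondins, intracellular feedback regulators and the TCF/LEF transcription factors. They were chosen by name (Wnt, Fzd, Sfrp and Dkk families, Dkkl1 and a list of 17 further Wnt pathway genes) and by a mean deposited count of at least 10 over the 12 libraries. Of 50 rows with a matching name, among 19336 named loci, 41 reached that count: 9 ligands, 14 receptors and co-receptors, 7 secreted inhibitors, 3 R-spondins, 4 feedback genes and 4 TCF/LEF factors. Just inside the limit were Wnt2b, Wif1 and Notum, with mean counts of 11.4, 11.9 and 13.7, and just outside it were Wnt2, Wnt11 and Wnt3, with 9.81, 8.29 and 5.44. The other 6 below it (Wnt16, Sfrp5, Dkk2, Wnt6, Wnt9b and Wnt10b) had mean counts from 0.291 to 5.19.

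Messenger RNA was sequenced from dissociated hippocampal cultures of WT mice, prepared at postnatal day 4 and kept for 8 days before treatment. Every culture belonged to 1 of 4 conditions with 3 libraries each: vehicle; the soluble ectodomain of ErbB4 (sErbB4, 20 nM), which binds the membrane-bound growth factor Neuregulin1 (Nrg1); DAPT (20 µM), an inhibitor of γ-secretase; and DAPT followed by sErbB4 (DAPT + sErbB4). DAPT or its vehicle was given overnight per the labels, and the sources do not give its duration alike. The study then gave sErbB4 or its vehicle for 4 h until RNA was extracted, a shorter exposure than that to DAPT. The design asks which genes depend on γ-secretase activity, with and without stimulation of Nrg1 by sErbB4. The libraries of a condition are described as separate platings of pooled pups, so p-values measure the spread between platings.

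Wnt proteins are secreted lipid-modified ligands. On a receiving cell they bind a Frizzled receptor together with Lrp5 or Lrp6, which stops the destruction of β-catenin and lets it act with TCF/LEF factors on target genes, among them Axin2, Nkd1, Rnf43 and Znrf3, whose products dampen the pathway. In the hippocampus Wnt signals pattern the early field from the cortical hem and act on neural progenitors and on dendrites and synapses. γ-Secretase cuts Notch receptors, Nrg1 and other membrane proteins.

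The libraries held 36518802 to 54350270 estimated counts, of which 43.4 to 51.8% lay at loci without a gene name and were left out. Of the named counts, 31.4 to 44.6% came from Rn45s, the ribosomal RNA precursor, and 0.0385 to 0.0504% from the 41 Wnt pathway genes. Levels are given as CPM, the count scaled to an adjusted library size. That size is the total over the named loci tested, multiplied by the library's TMM normalisation factor from edgeR. The factors ran from 0.926 in vehicle replicate 3 to 1.18 in DAPT replicate 3, so these levels differ from CPM without that adjustment. All 8 neuronal markers were above 0 in every library, as were all 7 astrocyte, all 8 radial glial and all 6 oligodendrocyte precursor markers, so the cultures labelled neuronal also held transcripts of glia and progenitors. On the second principal component of all genes tested, sErbB4 replicate 1 (-18.3) and vehicle replicate 3 (-8.16) stood apart from the other 10 libraries (-0.80 to 8.41); with both left out, the same 7 and 8 of the 41 genes were called in the 2 DAPT comparisons described next.

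A gene was called when its edgeR quasi-likelihood test gave a Benjamini-Hochberg adjusted p under 0.05 over the 15656 genes tested and the higher level exceeded the lower by more than 25%, the fold limit. All 41 genes passed the filter on low counts. With DAPT against vehicle, 6 of the 41 fell and 1 rose, where 6.92% of all genes tested fell and 4.66% rose. With DAPT + sErbB4 against sErbB4, a comparison that shares no library with the first, 7 fell and 1 rose, where 7.15% of all genes fell and 4.55% rose. Fzd4, Fzd7, Fzd9, Lrp5 and Wnt7b fell in both comparisons, 5 of 41 against 5.43% of all genes, and Wnt9a rose in both, 1 of 41 against 2.68%. The median log2 fold change of the 41 genes was -0.14 in the first and -0.16 in the second comparison, beside 0.0067 and 0.010 over all genes tested. In 6 of the 41 genes (Fzd2, Fzd4, Fzd7, Fzd9, Lrp5 and Wnt7b) all 6 libraries with DAPT lay below all 6 without it, as they did in 11.8% of all genes, and in 2 (Fzd3 and Wnt9a) all 6 lay above, as in 8.6% of all genes. In bulk RNA, fewer cells of a type and less RNA per cell cannot be told apart.

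**Figure D1:**
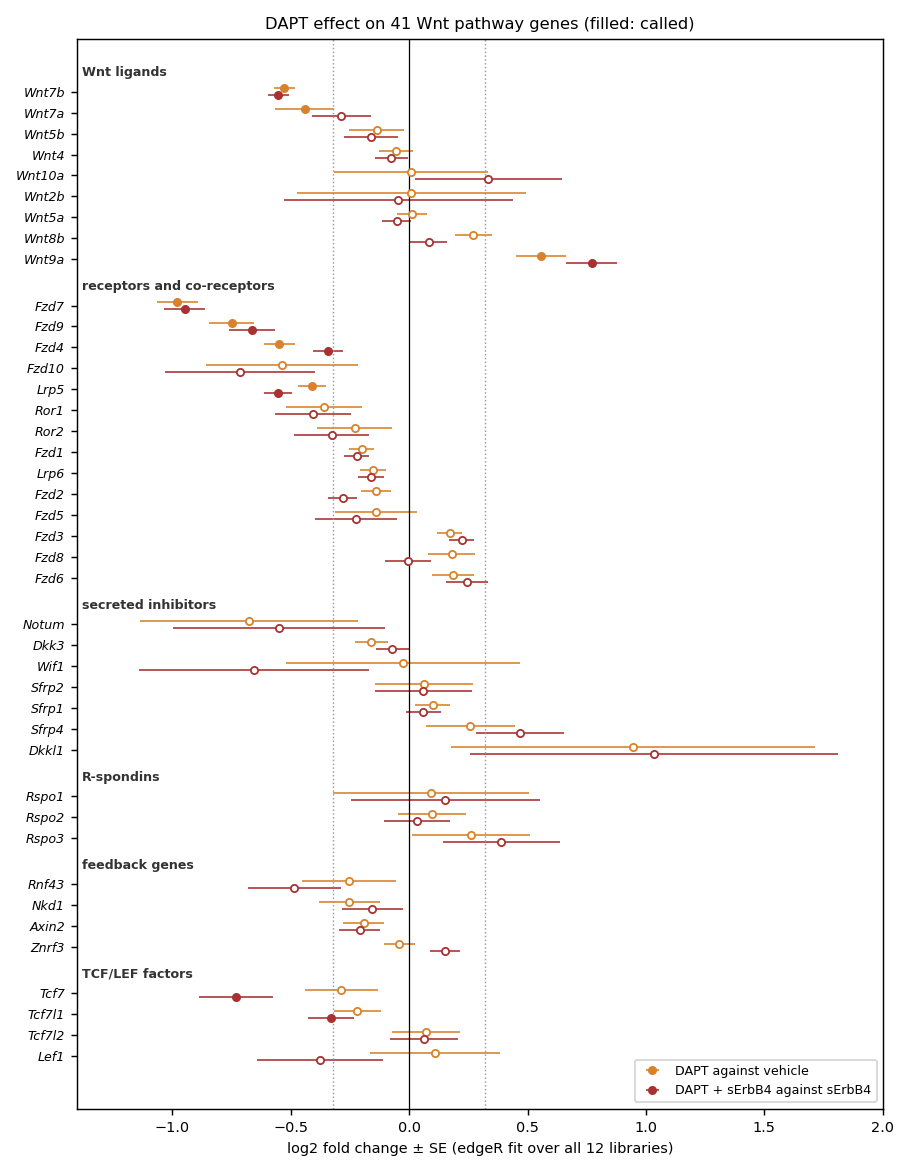
Log2 fold change (x axis) of each of the 41 Wnt pathway genes (y axis, grouped by role) for DAPT against vehicle and for DAPT + sErbB4 against sErbB4; bars are the standard error of the edgeR fit, filled points are called and dotted lines mark the fold limit. Fzd7 lies farthest to the left among the called genes, at -0.98 and -0.95, and Wnt9a lies on the right, at 0.56 and 0.77.

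Among the 9 ligands, Wnt7b and Wnt7a fell with DAPT against vehicle, Wnt9a rose, and the other 6 were not called. Of all genes tested, 6.92% fell and 4.66% rose in that comparison. Wnt7b (chr15:85535437-85582473, minus strand, GRCm38), a ligand of the canonical pathway known for its part in dendrite growth and in brain vessel formation, measured 57.9, 59.5 and 58.4 CPM with vehicle, 54.4, 58.3 and 56.9 with sErbB4, 41.4, 42.2 and 38.5 with DAPT and 38.5, 39.3 and 37.8 with DAPT + sErbB4. Every library with DAPT lay below every library without it. The log2 fold change was -0.53 (SE 0.044, adjusted p = 7.33e-06) without and -0.55 (SE 0.043, adjusted p = 4.55e-06) with sErbB4. The annotated gene AU022754 overlaps Wnt7b on the other strand, with a mean count of 12.6 of its own, and the strand setting of the counting is not given in the sources used here.

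Wnt7a (chr6:91363981-91411363, minus strand), the close relative of Wnt7b that acts at synapses and on neural stem cells, stood at 62.7, 58.8 and 53.3 CPM with vehicle, 55.0, 57.7 and 38.3 with sErbB4, 43.1, 45.7 and 40.2 with DAPT and 40.0, 41.4 and 42.5 with DAPT + sErbB4. The 3 DAPT libraries lay below the 3 vehicle libraries, whereas sErbB4 replicate 3 lay below all 6 libraries with DAPT and made the second pair of groups overlap. Its log2 fold change was -0.44 (SE 0.12, adjusted p = 0.0245) for DAPT against vehicle and -0.29 (SE 0.12, adjusted p = 0.121) for DAPT + sErbB4 against sErbB4. The first call was lost in edgeR without vehicle replicate 1 (-0.38, adjusted p = 0.0978), vehicle replicate 2 (-0.43, 0.064), DAPT replicate 1 (-0.43, 0.0696) or DAPT replicate 3 (-0.38, 0.0982), in an overall range of adjusted p from 0.000746 to 0.0982 over 20 alternatives. Without sErbB4 replicate 3 the second comparison became a call, at -0.45 (adjusted p = 0.00143, in a range from 0.00143 to 0.396).

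Wnt9a (chr11:59306928-59333552, plus strand), a ligand studied mainly in joint and blood stem cell formation, went the other way. It measured 3.05, 2.75 and 2.82 CPM with vehicle, 2.42, 2.36 and 2.33 with sErbB4, 4.56, 3.98 and 4.18 with DAPT and 4.22, 3.55 and 4.37 with DAPT + sErbB4. No library with DAPT overlapped a library without it. The log2 fold change was 0.56 (SE 0.11, adjusted p = 0.00285) and, with sErbB4 present, 0.77 (SE 0.11, adjusted p = 0.000316). Wnt8b (chr19:44493472-44514273, plus strand), a ligand of the cortical hem and the embryonic hippocampal field, stood at 5.56, 4.78 and 5.14 CPM with vehicle, 5.07, 4.88 and 4.79 with sErbB4, 6.16, 6.57 and 6.04 with DAPT and 5.48, 4.89 and 5.26 with DAPT + sErbB4. The 3 DAPT libraries held its highest values and did not overlap vehicle, but the difference of 0.27 (SE 0.078, adjusted p = 0.0454) was under the fold limit. In the second comparison the groups overlapped, at 0.083 (SE 0.078, adjusted p = 0.623). Without vehicle replicate 1, edgeR called the first difference, at 0.33 (adjusted p = 0.0437, in a range from 0.0269 to 0.167 over the alternatives).

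The promoter window of Wnt9a is shown because it was the ligand that rose in both comparisons and because its window holds a core letter sequence of RBPJ, the DNA-binding partner of the Notch intracellular domain. The window runs from 250 bases before to 50 after the RefSeq start (chr11:59306680-59306979, plus strand, GRCm38.p6), and capitals mark the match. The letters searched were GTGGGAA for RBPJ and CTTTGA for TCF/LEF, each on both strands, and no window printed here holds both.
Wnt9a: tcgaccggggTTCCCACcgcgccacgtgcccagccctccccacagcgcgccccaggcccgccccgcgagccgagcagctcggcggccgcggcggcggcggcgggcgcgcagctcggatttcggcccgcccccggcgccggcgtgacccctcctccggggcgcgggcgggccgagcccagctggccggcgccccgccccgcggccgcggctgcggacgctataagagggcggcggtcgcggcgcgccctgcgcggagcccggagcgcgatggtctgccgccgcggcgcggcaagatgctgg
The match lies 240 bases before the start. Windows were at hand for 25 of the 41 genes, 33 windows in all. The RBPJ letters occurred in 4 of the 33 (12.1%; Wnt9a, Tcf7l1 and overlapping windows of Lef1), beside 6.38% of all 32851 windows of the same length, and the TCF/LEF letters in 4 (12.1%; Fzd1, Lef1, Ror1 and Wnt5b), beside 16% of all. The RBPJ letters of Lef1 are the same stretch seen in each of its overlapping windows, so the 4 windows with these letters stand for 3 genes. A match is a description of the sequence and not a binding site.

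The other 5 ligands were not called in either DAPT comparison. Wnt4, a ligand of kidney and gonad development, ranged from 6.27 to 7.42 CPM over the 12 libraries, with log2 fold changes of -0.056 and -0.075 without and with sErbB4. Wnt5a and Wnt5b act mostly through β-catenin-independent signaling. Wnt5a ranged from 10.3 to 12.4 CPM (0.012 and -0.053), and Wnt5b from 6.22 to 9.27 CPM (-0.14 and -0.16). Wnt10a, a ligand of tooth and skin development, ranged from 0.783 to 1.71 CPM, and Wnt2b, expressed by the cortical hem in the embryo, from 0.234 to 0.644 CPM. At these low levels the 95% interval of the DAPT effect ran from -0.71 to 0.72 for Wnt10a and from -1.05 to 1.07 for Wnt2b, so a change of 1.5-fold in either could not have been seen at this depth.

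**Figure D2:**
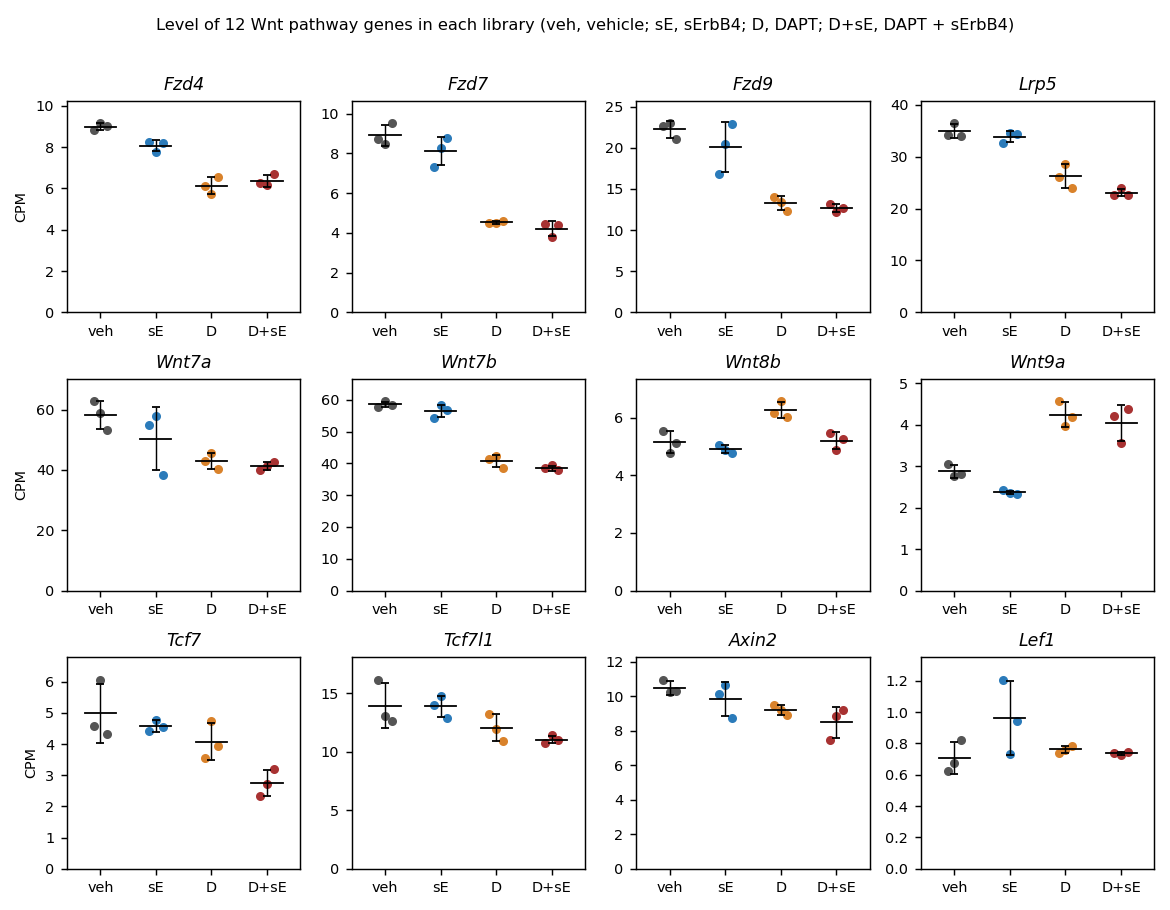
CPM (y axis, from 0) of 12 Wnt pathway genes in each library, by condition (x axis; veh, vehicle; sE, sErbB4; D, DAPT; D+sE, DAPT + sErbB4); points are libraries, lines the mean and bars 1 SD of 3 libraries. In the panels of Fzd4, Fzd7, Fzd9, Lrp5 and Wnt7b the 6 libraries with DAPT lie below the 6 without, in that of Wnt9a they lie above, and the groups of Lef1 overlap.

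Of the 14 receptors and co-receptors, 4 fell in both DAPT comparisons and none rose, where 5.43% of all genes tested fell and 2.68% rose in both. Fzd7 (chr1:59482424-59486955, plus strand), a Frizzled receptor of stem and progenitor cells, measured 8.73, 8.48 and 9.51 CPM with vehicle, 7.33, 8.27 and 8.75 with sErbB4, 4.48, 4.47 and 4.61 with DAPT and 4.44, 3.80 and 4.41 with DAPT + sErbB4. The libraries with DAPT, from 3.80 to 4.61 CPM, lay well below those without, from 7.33 to 9.51 CPM. Its log2 fold changes were -0.98 (SE 0.087, adjusted p = 1.21e-05) and -0.95 (SE 0.087, adjusted p = 1.41e-05).

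Fzd9 (chr5:135248938-135251230, minus strand), a Frizzled receptor present in the developing hippocampus, measured 22.7, 23.0 and 21.0 CPM with vehicle, 16.8, 20.4 and 22.9 with sErbB4, 14.0, 13.4 and 12.3 with DAPT and 13.1, 12.2 and 12.7 with DAPT + sErbB4. sErbB4 replicate 1 had the lowest value among the libraries without DAPT and still lay above every library with it. The log2 fold changes were -0.75 (SE 0.096, adjusted p = 0.000196) and -0.66 (SE 0.095, adjusted p = 0.000418). Fzd4 (chr7:89404355-89413134, plus strand), the receptor of the ligand Norrin as well as of Wnts and known for retinal and brain vessels, measured 8.81, 9.16 and 9.01 CPM with vehicle, 8.25, 7.76 and 8.22 with sErbB4, 6.12, 5.72 and 6.53 with DAPT and 6.26, 6.15 and 6.69 with DAPT + sErbB4. The vehicle libraries were highest, the sErbB4 libraries next, and the 6 libraries with DAPT lowest, with log2 fold changes of -0.55 (SE 0.064, adjusted p = 9.92e-05) and -0.34 (SE 0.063, adjusted p = 0.00235). Without DAPT + sErbB4 replicate 2 the second value was -0.32 (edgeR adjusted p = 0.0132, in a range from 0.000666 to 0.0178), just under the fold limit.

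Lrp5 and Lrp6 are the co-receptors that carry the canonical Wnt signal into the cell. Lrp5 (chr19:3584828-3686564, minus strand) measured 34.1, 36.5 and 34.1 CPM with vehicle, 32.7, 34.6 and 34.3 with sErbB4, 26.1, 28.7 and 24.0 with DAPT and 22.6, 23.9 and 22.7 with DAPT + sErbB4, and the libraries with and without DAPT did not overlap. It fell by 0.41 and 0.55 on the log2 scale, with edgeR adjusted p of 0.000439 and 4.45e-05 (SE 0.059 in both). Lrp6 measured 35.3, 35.1 and 35.0 CPM with vehicle, 35.2, 30.0 and 33.6 with sErbB4, 31.9, 30.1 and 32.8 with DAPT and 28.8, 29.4 and 29.9 with DAPT + sErbB4. Within each comparison its DAPT libraries lay below the others, but the differences of -0.15 (SE 0.055, adjusted p = 0.065) and -0.16 (SE 0.054, adjusted p = 0.0518) did not reach the call.

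The promoter windows of Fzd7 (chr1:59481897-59482196, plus strand), Fzd9 (chr5:135250998-135251297, minus strand) and Fzd4 (chr7:89404116-89404415, plus strand) are shown as those of the 3 Frizzled genes that fell together; neither letter sequence occurs in them, so they carry no capitals.
Fzd7: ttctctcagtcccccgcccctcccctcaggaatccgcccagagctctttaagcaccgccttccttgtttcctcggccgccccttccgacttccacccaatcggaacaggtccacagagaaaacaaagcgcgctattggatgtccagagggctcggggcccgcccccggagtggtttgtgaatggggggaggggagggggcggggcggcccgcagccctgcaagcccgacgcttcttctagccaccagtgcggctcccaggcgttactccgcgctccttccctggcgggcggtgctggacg
Fzd9: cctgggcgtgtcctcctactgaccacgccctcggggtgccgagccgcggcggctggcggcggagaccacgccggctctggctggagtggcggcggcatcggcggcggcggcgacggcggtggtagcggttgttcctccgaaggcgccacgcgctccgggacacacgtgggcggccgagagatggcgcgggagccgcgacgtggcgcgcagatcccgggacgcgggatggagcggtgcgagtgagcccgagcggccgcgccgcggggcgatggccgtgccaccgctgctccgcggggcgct
Fzd4: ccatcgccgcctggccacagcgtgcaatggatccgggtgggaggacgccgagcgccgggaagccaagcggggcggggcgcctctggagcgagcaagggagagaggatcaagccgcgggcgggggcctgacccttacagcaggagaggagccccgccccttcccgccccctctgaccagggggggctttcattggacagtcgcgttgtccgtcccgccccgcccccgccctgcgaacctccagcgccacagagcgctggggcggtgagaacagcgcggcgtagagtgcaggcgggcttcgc
All 3 windows are rich in G and C, at 66.7% in Fzd7, 78% in Fzd9 and 72.7% in Fzd4. The window of Fzd7, placed by the RefSeq start, ends before the start of the gene given above (59482424), which is from GENCODE. The absence of a match says only that these letters are not in these windows.

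Smaller differences passed the adjusted p in edgeR but not the fold limit. Fzd1, a canonical Frizzled receptor, differed by -0.20 (SE 0.052, adjusted p = 0.0161) and -0.22 (SE 0.052, adjusted p = 0.00927). Fzd3, the Frizzled of axon guidance and planar polarity, differed in the other direction, by 0.17 (SE 0.053, adjusted p = 0.0364) and 0.22 (SE 0.053, adjusted p = 0.00981). Its libraries with DAPT ranged from 50.5 to 56.3 CPM and lay above all those without, from 41.4 to 50.3 CPM. Fzd2, a receptor of Wnt5a among others, differed by -0.28 (SE 0.061, adjusted p = 0.0104) with sErbB4 present and by -0.14 (SE 0.062, adjusted p = 0.299) without.

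The remaining 6 receptors were not called. Fzd6, a planar polarity receptor, ranged from 7.49 to 10.6 CPM (0.18 and 0.24 without and with sErbB4), and Fzd8, a canonical receptor, from 6.99 to 9.61 CPM (0.18 and -0.0044). Fzd5 ranged from 1.05 to 1.55 CPM (-0.14 and -0.22) and Fzd10 from 0.457 to 1.29 CPM (-0.54 and -0.72). Ror1 and Ror2 are receptor tyrosine kinases that bind Wnt5a. Ror1 ranged from 1.74 to 2.98 CPM (-0.36 and -0.40) and Ror2 from 1.21 to 1.85 CPM (-0.23 and -0.33), and the smallest edgeR adjusted p of the pair was 0.0887, for Ror1 with sErbB4 present.

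None of the 7 secreted inhibitors was called in either DAPT comparison. Dkk3, a divergent member of the Dickkopf family, ranged from 51.9 to 69.0 CPM, with log2 fold changes of -0.16 and -0.071. The Sfrp proteins bind Wnts outside the cell. Sfrp1 ranged from 11.1 to 14.1 CPM (0.099 and 0.06), Sfrp2 from 2.01 to 3.26 CPM (0.063 and 0.059) and Sfrp4 from 3.14 to 6.28 CPM (0.26 and 0.47). Sfrp4 became a call in the second comparison without sErbB4 replicate 2, at 0.76 (edgeR adjusted p = 0.00426). That library held 5.43 CPM beside 3.14 and 3.48 in the other 2 sErbB4 libraries.

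The other 3 inhibitors were near the limit of detection. Wif1, which traps Wnts, ranged from 0.249 to 1.02 CPM, Notum, the enzyme that removes the lipid of Wnts, from 0.229 to 0.941 CPM, and Dkkl1, a Dickkopf-like protein of unclear Wnt activity, from 0 to 0.913 CPM, with a count of 0 in sErbB4 replicate 1, which allows up to 3 counts. Their 95% intervals for DAPT against vehicle ran from -1.11 to 1.06, -1.68 to 0.33 and -0.74 to 2.63, so a 2-fold change of Wif1 was not detectable at this depth. The R-spondins, secreted proteins that raise Wnt signaling by removing Rnf43 and Znrf3 from the cell surface, were also low: Rspo1 ranged from 0.319 to 1.00 CPM, Rspo2 from 1.69 to 2.22 CPM and Rspo3 from 0.899 to 2.35 CPM. None of the 3 was called, and their log2 fold changes lay between 0.033 and 0.39 in the 2 DAPT comparisons.

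The 4 feedback genes, which the canonical pathway itself switches on, were not called in either comparison. Axin2, the scaffold of the β-catenin destruction complex and the usual reporter of canonical signaling, measured 11.0, 10.2 and 10.3 CPM with vehicle, 10.1, 10.6 and 8.75 with sErbB4, 9.51, 9.21 and 8.88 with DAPT and 7.48, 8.83 and 9.18 with DAPT + sErbB4. The DAPT libraries lay below vehicle, and the groups of the second comparison overlapped. The log2 fold changes were -0.19 (SE 0.087, adjusted p = 0.14) and -0.21 (SE 0.086, adjusted p = 0.103) in edgeR, and the 95% intervals ran from -0.38 to -0.0019 and from -0.40 to -0.02.

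Nkd1, an inhibitor that binds Dishevelled, measured 3.05, 2.64 and 2.78 CPM with vehicle, 2.46, 2.97 and 2.41 with sErbB4, 2.22, 2.46 and 2.45 with DAPT and 2.48, 2.10 and 2.49 with DAPT + sErbB4. Its groups did not overlap in the first comparison and overlapped in the second, with differences of -0.25 (SE 0.13, adjusted p = 0.205) and -0.15 (SE 0.13, adjusted p = 0.442). Rnf43 and Znrf3 are membrane ubiquitin ligases that remove Frizzled receptors. Rnf43 measured 2.35, 2.02 and 3.05 CPM with vehicle, 3.30, 2.33 and 2.29 with sErbB4, 2.11, 2.19 and 1.96 with DAPT and 2.26, 1.74 and 1.67 with DAPT + sErbB4. Here the second pair of groups did not overlap and the first did, with differences of -0.25 (SE 0.20, adjusted p = 0.416) and -0.48 (SE 0.20, adjusted p = 0.0996). Znrf3 measured 8.38, 7.81 and 8.56 CPM with vehicle, 7.37, 7.63 and 7.49 with sErbB4, 7.49, 8.67 and 7.97 with DAPT and 8.05, 8.51 and 8.43 with DAPT + sErbB4. Its values overlapped between DAPT and vehicle, while DAPT + sErbB4 lay above sErbB4, with differences of -0.041 (SE 0.064, adjusted p = 0.744) and 0.15 (SE 0.063, adjusted p = 0.159). Without DAPT replicate 1 the first of these took the other sign, at 0.019.

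Of the 4 TCF/LEF factors, Tcf7 and Tcf7l1 fell with DAPT + sErbB4 against sErbB4, where 7.15% of all genes tested fell. None of the 4 was called with DAPT against vehicle, where 6.92% of all genes fell and 4.66% rose. Tcf7 (chr11:52252371-52283014, minus strand), which encodes the factor TCF1, measured 4.58, 6.07 and 4.32 CPM with vehicle, 4.43, 4.79 and 4.54 with sErbB4, 3.55, 4.74 and 3.95 with DAPT and 2.35, 2.71 and 3.20 with DAPT + sErbB4. The 3 DAPT + sErbB4 libraries were the lowest of the 12, whereas DAPT and vehicle overlapped. The log2 fold change was -0.73 (SE 0.16, adjusted p = 0.00535) with sErbB4 and -0.29 (SE 0.15, adjusted p = 0.214) without. The difference between these 2 effects, the interaction of DAPT and sErbB4, was -0.44 (SE 0.22, adjusted p = 1) and was not called, so the 2 effects were not shown to differ. Annotated genes overlap Tcf7 on the same strand (Gm26551) and on the other (A630014C17Rik), and neither has a named row of its own in the counts.

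Tcf7l1 (chr6:72626378-72789254, minus strand), which encodes TCF3, mostly a repressor of Wnt targets in stem cells, measured 16.2, 13.0 and 12.6 CPM with vehicle, 14.0, 14.7 and 12.9 with sErbB4, 13.3, 12.0 and 10.9 with DAPT and 10.7, 11.4 and 11.0 with DAPT + sErbB4. Annotated genes without a named row of their own overlap Tcf7l1 on the same strand (Gm37736, Gm37969 and Gm38114) and on the other (Gm15401, Gm15402 and Gm38320). For Tcf7l1, DAPT + sErbB4 lay below sErbB4, and DAPT overlapped vehicle. Its differences were -0.33 (SE 0.097, adjusted p = 0.0277) with sErbB4 and -0.22 (SE 0.098, adjusted p = 0.139) without. That call was lost without any of 5 libraries: sErbB4 replicate 1 (-0.33, edgeR adjusted p = 0.056), sErbB4 replicate 2 (-0.28, 0.0989) and DAPT + sErbB4 replicates 1 (-0.31, 0.0839), 2 (-0.35, 0.0563) and 3 (-0.33, 0.0703), in a range of adjusted p from 0.00876 to 0.0989. Its promoter window (chr6:72788996-72789295, minus strand) is shown as the other window of a called gene with the RBPJ letters, in capitals, here 55 bases before the start.
Tcf7l1: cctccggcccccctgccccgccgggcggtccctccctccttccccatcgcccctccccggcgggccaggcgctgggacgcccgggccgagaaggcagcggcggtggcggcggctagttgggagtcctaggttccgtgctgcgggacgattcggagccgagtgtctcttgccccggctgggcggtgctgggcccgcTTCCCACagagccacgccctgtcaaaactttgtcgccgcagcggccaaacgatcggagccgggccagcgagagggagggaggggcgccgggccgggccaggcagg
A part of these letters in the changes of Tcf7l1 and Wnt9a was not tested.

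Tcf7l2, which encodes TCF4, measured 6.85, 4.61 and 5.64 CPM with vehicle, 6.80, 5.27 and 5.15 with sErbB4, 6.36, 5.36 and 6.37 with DAPT and 6.39, 5.83 and 5.76 with DAPT + sErbB4. The groups overlapped in both comparisons, with differences of 0.072 (SE 0.15, adjusted p = 0.788) and 0.063 (SE 0.14, adjusted p = 0.808), whose sign changed without vehicle replicate 2 (-0.051) and without sErbB4 replicate 3 (-0.0044). Lef1, the factor required for dentate granule cell formation, measured 0.626, 0.674 and 0.819 CPM with vehicle, 1.21, 0.734 and 0.941 with sErbB4, 0.741, 0.760 and 0.784 with DAPT and 0.739, 0.724 and 0.747 with DAPT + sErbB4. Its values were low, the sErbB4 libraries the most spread, and the differences were 0.11 (SE 0.27, adjusted p = 0.832) and -0.38 (SE 0.27, adjusted p = 0.356) in edgeR.

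Cell type markers moved beside these genes. The summed level of 6 cycling cell markers was 54.3 to 66.0 CPM in the 6 libraries without DAPT and 20.7 to 25.8 CPM in the 6 with it, a ratio of 0.39, and all 6 markers fell in both comparisons. For 8 radial glial and neural stem cell markers the sums were 4732 to 5531 CPM without and 2763 to 3142 CPM with DAPT (0.572), but most of that difference was 1 gene, Fabp7, at 2588 to 3051 CPM without and 692.3 to 787.9 CPM with DAPT. The other 7 markers summed to 2144 to 2480 CPM and 2021 to 2354 CPM (0.934). Fabp7, Hes5, Nes and Slc1a3 were called lower in both comparisons, and the remaining 4, Vim, Sox2 and Hopx among them, in neither. For 6 oligodendrocyte precursor markers they were 999.1 to 1084 CPM and 521.1 to 594.7 CPM (0.524), with 4 of 6 called lower in both, and without Olig1, the most abundant of them, the ratio was 0.774. The 7 pericyte and smooth muscle markers summed to 26.1 to 36.0 CPM without and 19.4 to 24.8 CPM with DAPT (0.685), with 5 of 7 above 0 in every library, and without Pdgfrb the ratio was 0.585. Of the 4 tested, Rgs5 and Tagln were called lower in both comparisons and the other 2 in neither. Mean Tagln was 12.1 CPM with vehicle, 9.53 with sErbB4, 5.34 with DAPT and 4.26 with DAPT + sErbB4. Mean Acta2 was 4.21, 3.77, 4.02 and 3.25 CPM in the same order.

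The sums of the other lists differed less, and in some of them members went both ways. The 7 astrocyte markers summed to 1.14 times as much with DAPT, and to 0.977 times without Gfap, the most abundant. In both comparisons Gja1 was called higher and Aldh1l1 and Aldoc lower, and the list's median log2 fold change was -0.11 and -0.025. The sum of the 8 neuronal markers was 1.09 times as high with DAPT (1.19 times without Tubb3), that of 6 Cajal-Retzius cell markers 1.10 times, of 6 choroid plexus and cortical hem markers 0.917 times (Rspo3 is in that list), of 9 leptomeningeal fibroblast markers 0.855 times (3 called higher in both comparisons, 4 lower in the first and 5 in the second), of 6 microglial markers 1.00 times and of 6 endothelial markers 0.992 times. The endothelial sums were 4.37 to 6.11 CPM in all, with 5 of 6 markers above 0 in every library. Most of the choroid plexus and cortical hem sum was Ttr, at 51.8 to 80.9 CPM without and 36.7 to 87.1 CPM with DAPT. Without Ttr the ratio was 0.848. Trpm3, called lower in both comparisons, was the only marker of that list called in them. The median log2 fold change of that list was 0.30 and 0.35, the other direction from its sum. The part of these cell types in the changes of Fzd4, Fzd7, Fzd9, Lrp5, Wnt7a, Wnt7b, Wnt9a, Tcf7 and Tcf7l1 was not tested.

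Further genes of the pathway were counted in 4 lists, whose counts stand against 6.92% of all genes called lower and 4.66% higher with DAPT against vehicle, and 7.15% and 4.55% with DAPT + sErbB4 against sErbB4. Among 14 transcriptional targets of β-catenin and TCF tested, 5 fell and 2 rose with DAPT against vehicle, and 4 fell and 2 rose with DAPT + sErbB4 against sErbB4. Ccnd1 and Ccnd2, the D-type cyclins that drive entry into the cell cycle, fell by 1.48 and 1.19 on the log2 scale in the first comparison and by 1.47 and 1.35 in the second, beside the cycling cell markers given above. Jag1, a Notch ligand, differed by -0.92 (SE 0.095, adjusted p = 3.84e-05) and -0.95 (SE 0.094, adjusted p = 2.49e-05), and Tnfrsf19, a receptor of progenitor cells, by -0.78 (SE 0.043, adjusted p = 3.47e-07) and -0.66 (SE 0.043, adjusted p = 1.24e-06). Bambi, a decoy receptor that dampens TGFβ and BMP signals, rose, by 0.69 and 0.98. Several of these targets also answer to other pathways. Bmp4, a BMP ligand, rose as well (0.40 and 0.49), and Ccn4 fell in the first comparison only by the call (-0.80, and -0.60 in the second); these 2 were named after their values were seen. The list's median was -0.22 and -0.10.

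Within the cell, 29 genes of Wnt secretion, the destruction complex and β-catenin had a median of 0.012 and 0.0097, and 2 fell in the first and 4 in the second comparison, beside the 6.92% and 7.15% of all genes. Ctnnbip1, which keeps β-catenin from binding TCF factors, fell in both comparisons, by 0.48 and 0.36 on the log2 scale, and so did Tle1, a Groucho co-repressor, by 0.39 and 0.39. The other calls of that list were Apc2 and Bcl9l, lower in the second comparison, and 27 and 25 of the 29 were not called. Of 18 further surface and secreted modulators tested, 4 fell with DAPT against vehicle (Apcdd1, Gpc4, Ndp and Ryk) and 2 with DAPT + sErbB4 against sErbB4 (Gpc4 and Ptk7), beside the same shares of all genes. Gpc4, a glypican that binds Wnts at the cell surface, differed by -0.51 (SE 0.071, adjusted p = 0.000357) and -0.52 (SE 0.071, adjusted p = 0.000287). Ndp encodes Norrin, the other ligand of Fzd4. Of 12 planar cell polarity genes, Celsr1, an atypical cadherin, rose in both comparisons (0.52 and 0.49), Daam2, a formin that binds Dishevelled, fell in both (-0.38 and -0.41), and Fuz rose in the second. Over all genes tested, 4.66 and 4.55% rose and 6.92 and 7.15% fell in these comparisons.

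**Figure D3:**
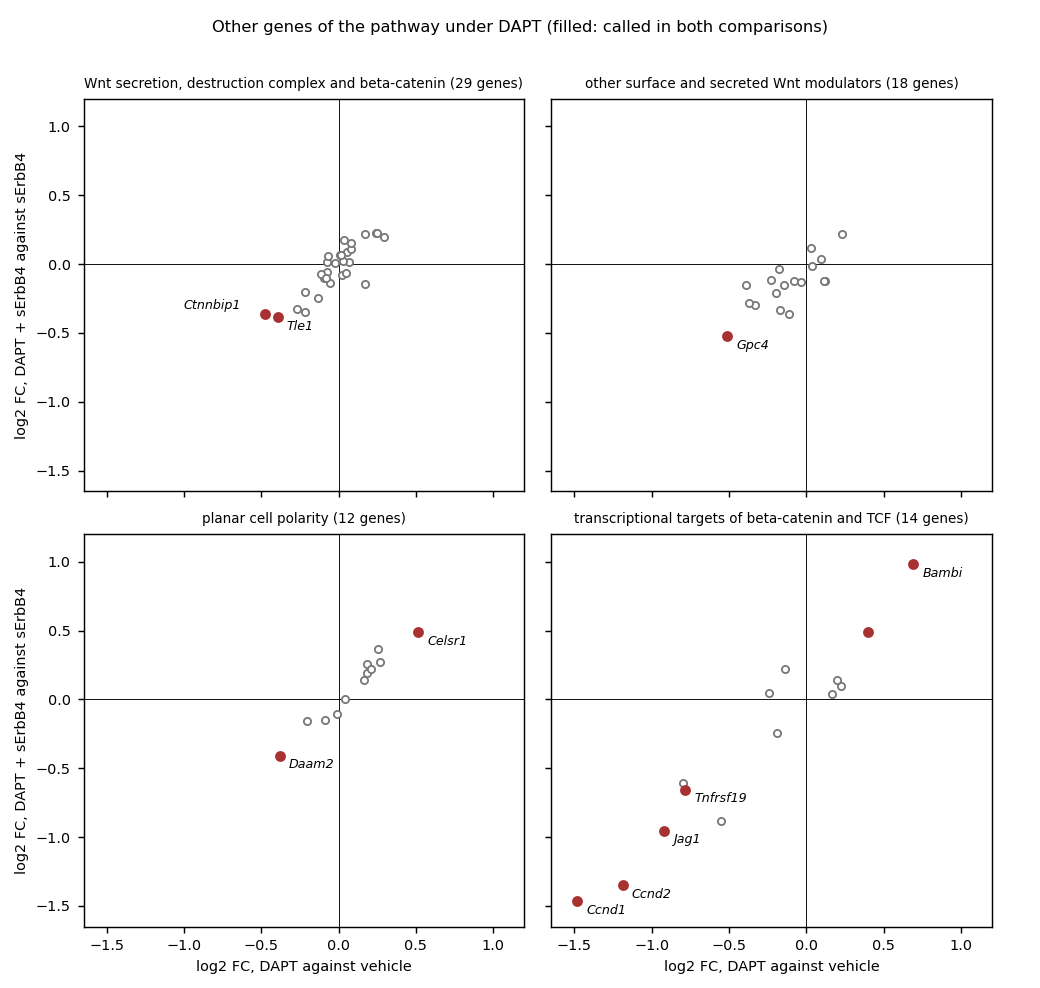
Log2 fold change of DAPT against vehicle (x axis) and of DAPT + sErbB4 against sErbB4 (y axis) for genes of 4 further Wnt pathway lists, 1 panel a list and 1 point a gene; filled points are called in both comparisons. Ccnd1 lies at -1.48 and -1.47, Bambi at 0.69 and 0.98, and most of the 29 genes of secretion and β-catenin lie near 0.

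With sErbB4 against vehicle, none of the 41 genes was called, beside 0.0319% of all genes tested. An unadjusted edgeR p under 0.05 was found for 1184 of all 15656 genes tested and for 2 of the 41. The smallest adjusted p was 0.591, for Fzd1 (-0.14), and the other was Fzd3 (-0.13). The median over the 41 was -0.093, beside -0.0020 over all genes. Of the 41 values, 30 lay below 0 and 11 above, where 49.1% of all genes tested lay above 0. The values come from the same libraries and are not independent of each other. The 95% interval lay within a 1.5-fold change for 31 of the 41 and within a 2-fold change for 35. For Fzd7 it ran from -0.31 to 0.045, for Wnt7b from -0.15 to 0.043 and for Axin2 from -0.28 to 0.096. Lef1, with -0.15 to 1.03, was among those left uncertain.

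After DAPT, sErbB4 likewise gave no call among the 41 (DAPT + sErbB4 against DAPT), beside 0% of all genes. An unadjusted edgeR p under 0.05 was found for 1442 of all 15656 genes tested and for 4 of the 41. These were Tcf7, at -0.56 (SE 0.16, adjusted p = 0.345), Wnt8b, at -0.26 (SE 0.077, adjusted p = 0.382), Lrp5, at -0.18 (SE 0.06, adjusted p = 0.402), and Fzd1, at -0.16 (SE 0.053, adjusted p = 0.402). Over 20 alternatives the adjusted p of Tcf7 ranged from 0.278 to 0.817. The median of the 41 was -0.077, beside 0.0020 over all genes, and the interval lay within 1.5-fold for 29 and within 2-fold for 35. DESeq2 and limma called none of the 41 in either sErbB4 comparison.

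**Figure D4:**
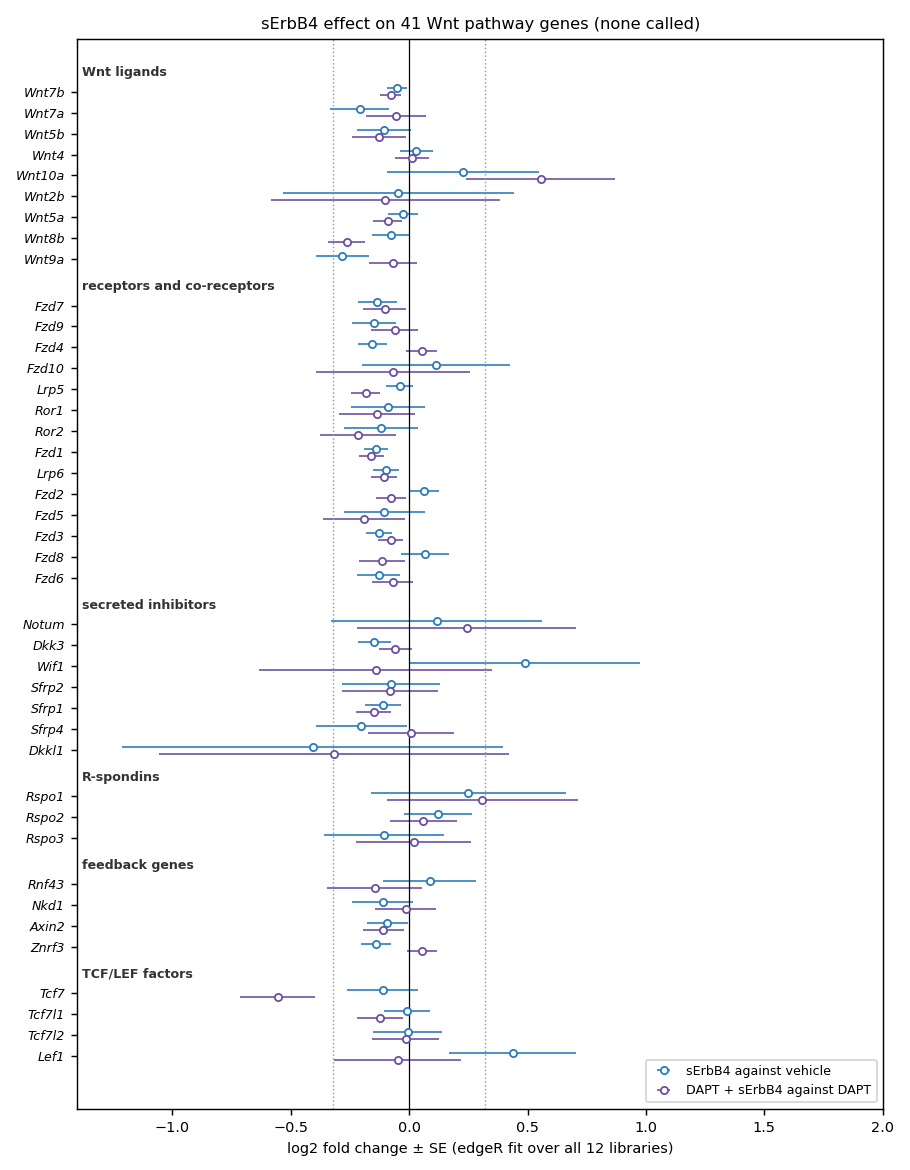
Log2 fold change (x axis) of each of the 41 Wnt pathway genes (y axis, grouped by role) for sErbB4 against vehicle and for DAPT + sErbB4 against DAPT; bars are the standard error of the edgeR fit and dotted lines mark the fold limit. All points are open, since none was called, and Tcf7 after DAPT lies at -0.56.

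Whether DAPT acted differently with and without sErbB4 was tested as an interaction. None of the 41 genes was called, beside 0.00639% of all genes. None had an unadjusted edgeR p under 0.05, beside 565 of all 15656 genes tested. DESeq2 and limma also called none of the 41. Intervals were wider here: 25 of 41 lay within a 1.5-fold difference between the 2 effects. For Fzd7 the interaction was 0.032, with a 95% interval of -0.29 to 0.36, for Wnt7b -0.026 (-0.16 to 0.11), for Fzd4 0.21 (-0.045 to 0.46) and for Wnt9a 0.21 (-0.17 to 0.60).

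The remaining comparison set sErbB4 directly against DAPT. It used libraries of the comparisons above and is no separate evidence. Of the 41 genes, 5 were higher with sErbB4, beside 6.04% of all genes, and 2 were lower, beside 4.05%. The higher genes were Fzd7 (0.84), Fzd9 (0.60), Wnt7b (0.47), Fzd4 (0.39) and Lrp5 (0.37), and the lower ones Wnt9a (-0.84) and Wnt8b (-0.35, edgeR adjusted p = 0.00763). Without DAPT replicate 3, Lrp5 came to 0.30, under the fold limit, and without DAPT replicate 2 Wnt8b came to -0.31. Calls were gained for Wnt7a without sErbB4 replicate 3 (0.39), for Fzd3 without sErbB4 replicate 1 (-0.33) or 3 (-0.32), for Fzd6 without sErbB4 replicate 2 (-0.39) or DAPT replicate 2 (-0.37) and for Sfrp4 without sErbB4 replicate 2 (-0.76).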

How the data were processed

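Deposited values were estimated counts per gene that the authors made from poly-A selected, paired-end reads: quality control with FastQC and MultiQC, trimming with Trimmomatic, alignment to mm10 with HISAT2, assembly and counting with StringTie and IsoformSwitchAnalyzeR, then limma on a log scale (versions and the strand setting are not given in the sources used here). All 12 columns were matched to a library by their names. The 1976 loci without a gene name (43.4 to 51.8% of counts) entered neither the library sizes nor the fits. The estimated counts, none of them whole, were rounded and tested here with edgeR 4.0.16 (R 4.3.3): TMM normalisation, filterByExpr by group, 1 mean per group over all 12 libraries, 8 residual degrees of freedom and quasi-likelihood tests with Benjamini-Hochberg adjustment. Standard errors are the log2 fold change over the root of F; 95% intervals use the wider of that and the error implied by p, which edgeR raises for genes with little spread. The fits were tested on simulated data. Alternatives used RLE normalisation, no low-count filter, DESeq2 1.42.0, limma 3.58.1 on log2(CPM + 2) after cyclic loess, unnamed loci, only the 6 libraries compared, a replicate block and leaving out libraries; the fit without both libraries that stand apart was added after the data were seen.

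The genes, pathway lists and marker lists were chosen with earlier results of these data known. Named in full were genes called in any comparison and Axin2, Lef1, Tcf7, Tcf7l1, Tcf7l2, Nkd1, Rnf43, Znrf3, Lrp5 and Lrp6, and, from each pathway list, up to 5 genes called in both DAPT comparisons. Positions are from GENCODE M21 (GRCm38) and promoter windows from RefSeq (GRCm38.p6), the assembly of mm10.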

Additional observations from a re-analysis of the deposited data

How the results depend on the processing

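The number of the 41 genes called with DAPT against vehicle stayed between 6 and 7 over 20 alternatives, that with DAPT + sErbB4 against sErbB4 between 6 and 9, and that with sErbB4 against DAPT between 6 and 9; in the 2 other sErbB4 comparisons and the interaction it stayed at 0. Leaving out each of the 12 libraries in turn gave the same ranges. With limma, Fzd4 (-0.29) and Tcf7l1 (-0.30) in DAPT + sErbB4 against sErbB4 and Wnt8b (-0.24) in sErbB4 against DAPT were under the fold limit; that scale adds 2 to each CPM and so compresses low values. In sErbB4 against DAPT, Fzd6 was called with unnamed loci kept (-0.32), and Fzd3 without both libraries that stand apart (-0.33). Of genes given with a direction, only small differences that were not called changed sign, each when 1 library was left out: Tcf7l2 ranged from -0.051 to 0.23 with DAPT against vehicle and from -0.0044 to 0.20 with DAPT + sErbB4 against sErbB4, and Znrf3 from -0.095 to 0.019 with DAPT against vehicle. Of the other 183 pairs of a gene and a comparison, none called as reported, 210 of 3618 values took the other sign and 2, both of Sfrp4, became calls.

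No source says that libraries with equal replicate numbers share a plating or a day. Over 18 same-numbered pairs, correlations of the deviations from the group means ran from -0.590 to 0.529 (median 0.023), and 8 were over 0.1. Over 36 other-numbered pairs they ran from -0.468 to 0.514 (median -0.087), and 12 were over 0.1. With a replicate block, 7, 8 and 7 of the 41 genes were called in the 3 comparisons above, the same genes as without it. The calls among all genes moved by over 1.5 times only in sErbB4 against vehicle, DAPT + sErbB4 against DAPT and the interaction, where they stayed between 0 and 9. For genes under about 1 CPM, counting error and the 3 libraries per condition limit what could be seen.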
